A study of Mus musculus with 36 samples.

Results

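The 10 genes described here make up the decision point of the G1 phase: the D-type cyclins Ccnd2 and Ccnd3, their kinases Cdk4 and Cdk6, the kinase inhibitors Cdkn1a (p21), Cdkn1b (p27), Cdkn2c (p18) and Cdkn2d (p19), and the pocket proteins Rb1 and Rbl2 (p130). They were found in the table by their symbols, and each had exactly 1 row in the table of 12762 genes. Messenger RNA was measured by sequencing in B3 cells, a mouse pre-B cell line that stands at the pre-BI stage. Control cells carried an MSCV retroviral vector with ERt2 (the hormone-binding domain of the oestrogen receptor) and IRES-GFP. Ikaros cells carried the same kind of vector with HA-tagged Ikaros fused to ERt2, so that the fusion protein entered the nucleus on addition of 4-hydroxytamoxifen (4-OHT). Both lines were sorted for GFP, and both received 0.5 uM 4-OHT for 2, 6, 12, 18 or 24 h. The labels give the same dose at 0 h, whereas the culture methods describe 0 h cells as not induced and as obtained separately. Each of the 12 groups had 3 libraries, 1 from each of 3 culture batches, which makes 36 libraries. The labels name 1 transduced line of each kind, so the replicates measure the spread between cultures of these lines.

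Before a cell enters S phase, D-type cyclins bind CDK4 or CDK6, and the active kinase phosphorylates the pocket proteins. Pocket proteins with little phosphate bind E2F factors and hold back the genes for DNA replication. The INK4 inhibitors, which include p18 and p19, bind CDK4 and CDK6 directly, and the CIP/KIP inhibitors p21 and p27 act on complexes of cyclin and kinase. Pre-B cells divide under the pre-B cell receptor and interleukin 7, with cyclin D3 and cyclin D2 as their main D-type cyclins, and leave the cycle as they pass to the small pre-BII stage.

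The libraries separated by line as labelled. Ikzf1, which encodes Ikaros, read 19.63 to 20.93 in the 18 Ikaros libraries and 13.95 to 14.85 in the 18 control libraries on the log2 expression scale of the deposited table. This scale is shifted by a constant, so differences between libraries are given here. Levels of different genes are not compared, except to mark differences that rest on low readings. Pre-B markers were in the table and did not move together at 24 h. Relative to control cells, Vpreb1 (-3.42) and Igll1 (-3.96), the surrogate light chain genes, were lower in Ikaros cells, while Cd79b (2.29), Pax5 (1.14), Ebf1 (1.01), Il7r (2.15), Rag2 (2.08) and Rag1 (5.19) were higher, and Cd79a (-0.15) was not called. Of 20 markers of T cells, myeloid cells, erythroid cells and fibroblasts, 5 were in it, and their mean at 24 h was 6.74 to 7.29 in control cells and 7.25 to 7.53 in Ikaros cells. Of those 5, the myeloid gene Lyz2 was lower in Ikaros cells at 24 h (log2 difference -2.94) and the myeloid gene Itgam was higher (4.24). Both rest on low readings, in control libraries 5.57 to 8.64 for Lyz2 and 3.72 to 6.76 for Itgam. The part of other cells in the results was not tested. The values come from whole cultures, in which fewer cells that express a gene and less RNA per cell cannot be told apart.

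At 24 h every member differed between Ikaros and control cells: the 2 cyclins and 2 kinases were lower, 3 of the 4 inhibitors and both pocket proteins were higher, and Cdkn1a was lower. The largest differences were a 9.5-fold lower level of Ccnd2 and an 8.82-fold higher level of Cdkn1b, and 6 of the 10 members differed by at least 2-fold. A call here is a Benjamini-Hochberg adjusted p under 0.05 in limma over all 12762 genes, and so large a share of the transcriptome had moved by 24 h that 62.9% of all genes were called and 32.7% were called with at least a 2-fold difference. The number of members called over 0, 2, 6, 12, 18 and 24 h was 3, 5, 8, 8, 8 and 10. The share of all genes called at these times was 8.33%, 19.1%, 37.3%, 45.8%, 58.2% and 62.9%. Of the members, 2, 3, 6, 4, 5 and 5 were called higher and 1, 2, 2, 4, 3 and 5 lower, and of all genes 4.61%, 9.18%, 18.1%, 23%, 29% and 31% were higher and 3.72%, 9.88%, 19.2%, 22.8%, 29.2% and 31.9% lower. The median absolute difference of the members at 24 h was 1.10 on the log2 scale, beside 0.68 over all genes. With the culture batch as a block, 5 members were called at 0 h instead of 3, and 1361 of all genes instead of 1063. Of the members called at 2 h, 0 of 5 were called in a fit of the 2 h libraries alone or without replicate 2, and 3 without replicate 1. At 24 h 7 of 10 were called without replicate 2. Calls over all genes fell as well. At 2 h they went from 2432 to 860 in the fit alone, 804 without replicate 2 and 962 without replicate 1. At 24 h they went from 8024 to 6248 without replicate 2.

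**Figure D1:**
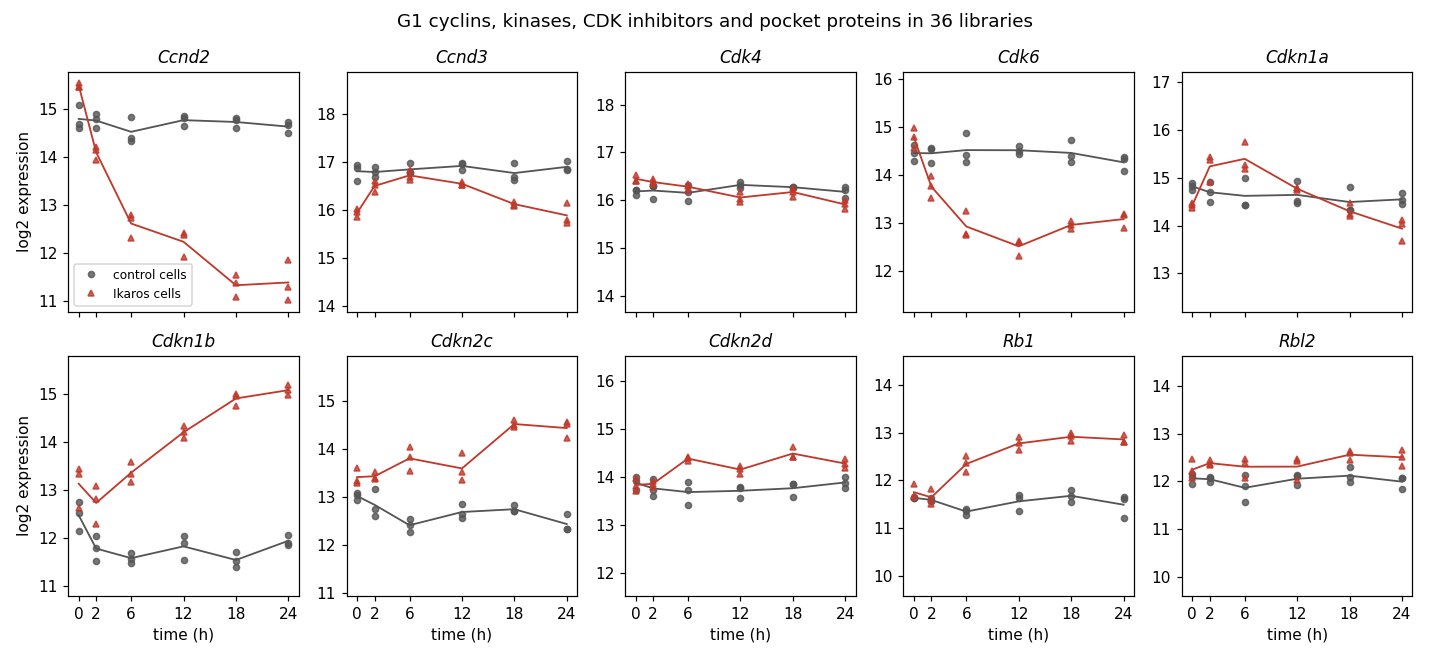
Log2 expression (vertical axis, each panel spanning 5 log2 units around its own centre) against time in h for the 10 genes; grey circles are the control libraries, red triangles the Ikaros libraries, and lines join the means of 3 libraries. Ccnd2 and Cdk6 leave the control level downwards from 2 h, Cdkn1b, Cdkn2c and Rb1 move upwards, and Ccnd3 and Cdkn1a approach or pass the control level and then turn down.

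Ccnd2, which encodes cyclin D2, fell furthest. In Ikaros cells its 3 libraries read 15.48, 15.48 and 15.55 at 0 h and 11.02, 11.30 and 11.86 at 24 h. In control cells they read 14.62, 14.69 and 15.10 at 0 h and 14.51, 14.68 and 14.74 at 24 h. The Ikaros libraries were thus all above the control libraries before induction and all below them from 2 h on. Over 0, 2, 6, 12, 18 and 24 h the Ikaros minus control difference of Ccnd2 was 0.70, -0.66, -1.91, -2.54, -3.40 and -3.25 (log2, each ± 0.18 SE, n = 3 per group), and each was called by limma (adjusted p = 0.0141 at 0 h and 2.31e-14 at 24 h). Against their own 0 h level, the change of Ccnd2 in Ikaros cells was -1.40 at 2 h and -4.11 at 24 h, with adjusted p values of 3.83e-06 and 3.07e-16. The calls at 0 h and 2 h were both lost without replicate 1 (adjusted p = 0.258 and 0.116) and without replicate 2 (0.199 and 0.097). That at 2 h was also lost in a fit of the 2 h libraries alone (adjusted p = 0.0527).

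Ccnd3, which encodes cyclin D3, the D-type cyclin on which pre-B cell expansion depends, took another course. The Ikaros libraries read 15.86, 15.96 and 16.01 at 0 h, 16.63, 16.70 and 16.84 at 6 h and 15.74, 15.79 and 16.14 at 24 h. The control libraries read 16.61, 16.89 and 16.94 at 0 h, 16.77, 16.79 and 16.99 at 6 h and 16.83, 16.86 and 17.02 at 24 h. The Ikaros libraries lay below the control libraries at every time except 6 h, when the groups overlapped. The difference was -0.87 ± 0.11 (log2, SE) at 0 h, -0.29 at 2 h and -0.12 at 6 h, the last 2 not called, and -0.37, -0.65 and -1.01 at 12, 18 and 24 h, all called (limma, adjusted p = 6.64e-09 at 24 h). Ikaros cells had gained 0.78 over their own 0 h level at 6 h (adjusted p = 3.13e-06), and at 24 h they were back near it (-0.05, adjusted p = 0.689). The fall from 6 to 24 h relative to control cells was -0.89 ± 0.15 (limma, adjusted p = 4.17e-05), a contrast chosen after the values were seen. The call at 12 h was lost without replicate 1 (adjusted p = 0.085).

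The kinases of these cyclins moved by different amounts. Cdk6 libraries of Ikaros cells read 14.57, 14.80 and 14.98 at 0 h, 12.32, 12.61 and 12.62 at 12 h and 12.89, 13.17 and 13.19 at 24 h, while those of control cells read 14.30, 14.45 and 14.62 at 0 h, 14.44, 14.50 and 14.60 at 12 h and 14.09, 14.33 and 14.37 at 24 h. The groups overlapped at 0 h and were apart at each later time. The difference was 0.33 ± 0.16 (log2, SE) at 0 h, which was not called, and then -0.69, -1.59, -2.00, -1.50 and -1.18 over 2, 6, 12, 18 and 24 h, which were (limma, adjusted p = 1.42e-10 at 12 h and 4.94e-07 at 24 h). Cdk6 was thus lowest at 12 h, at 4.01-fold below control cells, and the difference narrowed by 0.82 ± 0.23 between 12 and 24 h (adjusted p = 0.00927, limma, also chosen after the values were seen). Its call at 2 h was lost without replicate 2 (adjusted p = 0.0959) and in a fit of the 2 h libraries alone (0.0734).

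Cdk4 had the smallest difference between the lines of the 10 at 24 h. In Ikaros cells the libraries read 16.41, 16.41 and 16.54 at 0 h and 15.82, 15.92 and 16.01 at 24 h, and its control libraries 16.12, 16.22 and 16.22 at 0 h and 16.04, 16.21 and 16.28 at 24 h. The Ikaros libraries were above the control libraries at 0 h and below them at 24 h, by small margins. The difference was 0.27 ± 0.09 (log2, SE, adjusted p = 0.0679) at 0 h and -0.26 (1.2-fold, adjusted p = 0.013) at 24 h by limma. At 12 h the difference of Cdk4 was -0.26 as well (adjusted p = 0.018), a call that was lost without replicate 1 (0.0564), replicate 2 (0.146) or replicate 3 (0.118) and in a fit of the 12 h libraries alone (0.133). The 24 h call was lost without replicate 1 (adjusted p = 0.193), without replicate 2 (0.0961) and in a fit of the 24 h libraries alone (0.0717). The change of the difference from 0 h to 24 h, -0.53 (adjusted p = 0.00113), was larger than either difference alone.

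The promoters of the 2 kinases are shown because both kinases were lower at 24 h, while their windows differ in the number of E-boxes (CACGTG, the same on both strands), the element bound by MYC with MAX; that of Cdkn1b, the member with the largest rise, is shown beside them. Each run is the 250 bases before a transcript start that RefSeq gives, on the plus strand of GRCm38.p6, with E-boxes in capitals. The annotations differ for Cdk6: GENCODE starts the gene upstream, at 3341485, so the window printed for it lies inside the gene as GENCODE has it.
Cdk4, chr10:127063285-127063534: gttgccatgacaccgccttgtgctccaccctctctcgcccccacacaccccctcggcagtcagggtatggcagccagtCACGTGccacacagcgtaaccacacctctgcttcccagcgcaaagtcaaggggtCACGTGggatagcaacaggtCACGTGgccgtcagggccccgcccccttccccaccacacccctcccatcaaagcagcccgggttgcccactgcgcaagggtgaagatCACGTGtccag
Cdk6, chr5:3343643-3343892: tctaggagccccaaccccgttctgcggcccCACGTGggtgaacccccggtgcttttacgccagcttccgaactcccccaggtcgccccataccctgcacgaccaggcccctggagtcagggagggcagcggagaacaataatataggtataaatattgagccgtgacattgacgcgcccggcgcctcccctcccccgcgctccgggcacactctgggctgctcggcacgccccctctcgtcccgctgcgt
Cdkn1b, chr6:134920151-134920400: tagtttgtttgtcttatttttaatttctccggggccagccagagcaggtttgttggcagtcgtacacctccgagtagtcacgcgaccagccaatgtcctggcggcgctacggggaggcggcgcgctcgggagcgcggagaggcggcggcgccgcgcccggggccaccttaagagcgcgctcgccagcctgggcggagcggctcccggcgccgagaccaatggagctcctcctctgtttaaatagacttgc

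The Cdk4 window held 4 E-boxes, the Cdk6 window 1 and the Cdkn1b window 0. Of 32851 promoter windows of that length in the table, 6.02% held an E-box and 7 windows held 4 or more. Windows were found for 8 of the 10 members, 11 windows in all, with none for Ccnd2 and Rb1. GGGAA, a core to which Ikaros can bind, was searched on both strands, as were the elements below, and was present in windows of Ccnd3, Cdk4, Cdkn1a, Cdkn2c, Cdkn2d and Rbl2, but 56.2% of all windows hold it. The forkhead element TGTTTAC was found in a window of Ccnd3 (3.17% of all windows), and the E2F elements TTTCCCGC (0.895% of all windows) and TTTGGCGC (0.417%) in no window of a member. TTTCCCGC holds the reverse complement of GGGAA, so these 2 motifs overlap. A match describes the letters of these windows and says nothing of binding.

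Cdkn1b, which encodes p27, rose most. Ikaros libraries read 12.64, 13.34 and 13.44 at 0 h, 12.30, 12.83 and 13.09 at 2 h and 14.98, 15.10 and 15.19 at 24 h. Its control libraries read 12.16, 12.53 and 12.76 at 0 h, 11.52, 11.80 and 12.05 at 2 h and 11.87, 11.91 and 12.07 at 24 h. The groups overlapped at 0 h, and the Ikaros libraries were above the control libraries at the 5 later times. The difference over 0, 2, 6, 12, 18 and 24 h was 0.66, 0.95, 1.78, 2.38, 3.37 and 3.14 (log2, each ± 0.20 SE), and all 6 were called (limma, adjusted p = 0.0339 at 0 h and 1.89e-13 at 24 h). The call at 0 h was lost without replicate 1 (adjusted p = 0.313), without replicate 2 (0.537) and in a fit of the 0 h libraries alone (0.173). That at 2 h was lost without replicate 1 (adjusted p = 0.0579), without replicate 2 (0.072) and in a fit of the 2 h libraries alone (0.0842).

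Control cells also read below their own 0 h level of Cdkn1b, which came from cells obtained separately. The fitted change was -0.89 at 6 h (limma, adjusted p = 0.0174), -0.93 at 18 h (adjusted p = 0.0336) and -0.53 at 24 h (adjusted p = 0.275). In Ikaros cells the change of Cdkn1b from their own 0 h over 2, 6, 12, 18 and 24 h was -0.40 (adjusted p = 0.147), 0.23 (0.393), 1.07 (6.85e-05), 1.78 (1.9e-08) and 1.95 (2.29e-09). The rise of p27 mRNA within Ikaros cells was therefore called from 12 h, later than the difference between the lines.

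The INK4 inhibitor Cdkn2c rose. Its Ikaros libraries read 13.30, 13.35 and 13.60 at 0 h, 13.55, 13.84 and 14.04 at 6 h, 13.35, 13.52 and 13.92 at 12 h and 14.23, 14.53 and 14.56 at 24 h. Its control libraries read 12.94, 13.05 and 13.08 at 0 h and 12.33, 12.33 and 12.66 at 24 h. The Ikaros libraries were above the control libraries at all 6 times. The difference was 0.39 ± 0.15 (log2, SE, adjusted p = 0.111) at 0 h. It was 0.60, 1.39, 0.91, 1.77 and 2.00 over 2, 6, 12, 18 and 24 h, and these 5 were called by limma (adjusted p = 5.68e-12 at 24 h). With the batch block the 0 h difference was called as well (adjusted p = 0.0363). The 2 h call of Cdkn2c was lost without replicate 2 (adjusted p = 0.139), without replicate 3 (0.0634) and in a fit of the 2 h libraries alone (0.112). Between neighbouring times the difference grew by 0.80 from 2 to 6 h (adjusted p = 0.025) and by 0.87 from 12 to 18 h (0.00795), while the step of -0.49 between them was not called (0.115; 0.046 with the batch block). Control cells were 0.61 below their own 0 h at 6 h (fitted change of Cdkn2c -0.61, adjusted p = 0.0245).

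The other INK4 member, Cdkn2d, changed less. For Cdkn2d the Ikaros libraries read 13.71, 13.81 and 13.97 at 0 h, 14.33, 14.40 and 14.41 at 6 h and 14.19, 14.28 and 14.36 at 24 h, and its control libraries 13.73, 13.91 and 14.00, then 13.41, 13.73 and 13.90, and then 13.77, 13.88 and 13.99. The groups overlapped at 0 and 2 h and were apart from 6 h on. The difference was -0.05 ± 0.11 (log2, SE) at 0 h and 0.09 at 2 h, neither called, and 0.70, 0.44, 0.72 and 0.39 at 6, 12, 18 and 24 h, all called (limma, adjusted p = 0.00406 at 24 h). Without replicate 2 the calls at 12 h (adjusted p = 0.0535) and 24 h (0.0847) were lost.

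Cdkn1a, which encodes p21, a CIP/KIP inhibitor and a textbook target of p53, was the only inhibitor to end below control cells. Its Ikaros libraries read 14.37, 14.43 and 14.47 at 0 h, 14.91, 15.36 and 15.42 at 2 h, 15.18, 15.26 and 15.73 at 6 h and 13.67, 14.02 and 14.11 at 24 h. Its control libraries read 14.74, 14.82 and 14.89 at 0 h, 14.48, 14.70 and 14.90 at 2 h, 14.42, 14.44 and 14.99 at 6 h and 14.44, 14.52 and 14.67 at 24 h. The Ikaros libraries were all below the control libraries at 0 h, all above them at 2 and 6 h, mixed with them at 12 and 18 h, and all below them at 24 h. The difference was -0.39 ± 0.17 (log2, SE, adjusted p = 0.201; 0.0274 with the batch block) at 0 h. Over 2, 6, 12, 18 and 24 h it was 0.54 (0.0295), 0.77 (0.000957), 0.13 (0.574), -0.19 (0.352) and -0.61 (0.0034) by limma. From 6 to 24 h the difference fell by 1.38 ± 0.25 (adjusted p = 5.82e-05), again a contrast chosen after the values were seen. The call at 2 h was lost without replicate 2 (adjusted p = 0.361), without replicate 3 (0.0544) and in a fit of the 2 h libraries alone (0.174), and that at 6 h without replicate 2 (0.0594) and in a fit of the 6 h libraries alone (0.0748).

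Of the pocket proteins, Rb1 rose and stayed up. For Rb1 the Ikaros libraries read 11.66, 11.68 and 11.93 at 0 h, 12.17, 12.35 and 12.51 at 6 h and 12.80, 12.81 and 12.95 at 24 h, whereas its control libraries read 11.63, 11.63 and 11.66 at 0 h, 11.28, 11.36 and 11.41 at 6 h and 11.21, 11.62 and 11.66 at 24 h. The groups overlapped at 2 h and were apart at 0 h, by less than 0.01, and from 6 h on. The difference was 0.12 ± 0.12 (log2, SE) at 0 h and 0.05 at 2 h, neither called, and 0.99, 1.21, 1.23 and 1.36 at 6, 12, 18 and 24 h, all called (limma, adjusted p = 9.69e-11 at 24 h). The growth of the Rb1 difference was concentrated between 2 and 6 h, where the step was 0.94 (adjusted p = 0.00137), and the steps after it were 0.21, 0.02 and 0.13, none called.

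Rbl2, the pocket protein that binds E2F factors in resting cells, differed less than Rb1 from 6 h on. Its Ikaros libraries read 12.07, 12.21 and 12.46 at 0 h and 12.33, 12.52 and 12.67 at 24 h, and its control libraries 11.94, 12.09 and 12.16 at 0 h and 11.84, 12.07 and 12.08 at 24 h. The groups were apart at 24 h and overlapped at 0 h. The difference was 0.18 ± 0.14 (log2, SE) at 0 h, 0.34 at 2 h and 0.25 at 12 h, which were not called, and 0.44, 0.44 and 0.51 at 6, 18 and 24 h, which were (limma, adjusted p = 0.00252 at 24 h). The change of its difference from 0 to 24 h was 0.33 (95% interval of that change -0.08 to 0.73, adjusted p = 0.177), and its moderated F test over the 5 later times gave an adjusted p of 0.592. Each of the 3 Rbl2 calls was lost without replicate 2 (adjusted p = 0.167 at 6 h, 0.113 at 18 h and 0.141 at 24 h). Without replicate 1, the calls at 6 h (0.25, adjusted p = 0.378) and 18 h (adjusted p = 0.138) were lost too, and that at 6 h in a fit of the 6 h libraries alone (0.182), while without replicate 3 the 6 h difference was 0.69.

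**Figure D2:**
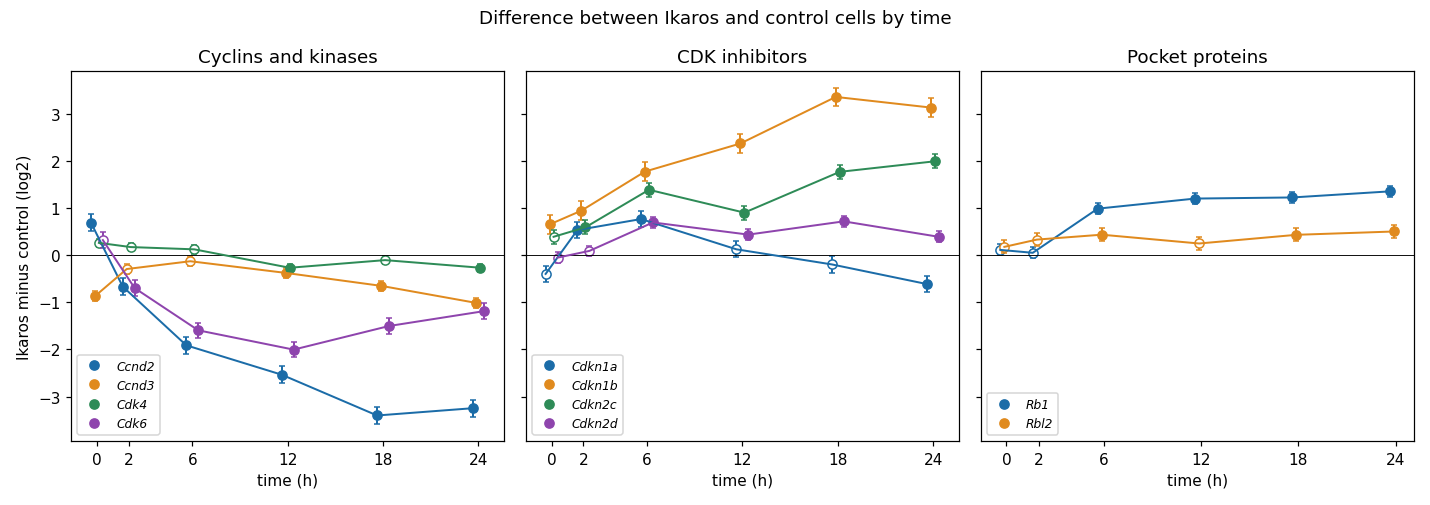
Difference between Ikaros and control cells (log2, vertical axis) against time in h, by role; points are limma estimates from 3 libraries per group, bars are 1 SE to each side, filled points are called at an adjusted p under 0.05 and open points are not. At 24 h the cyclins and kinases lie between -3.25 and -0.26, and the inhibitors split into 3 above 0 and Cdkn1a below it.

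By role, the cyclins and kinases were called lower in growing number up to 12 h: over 0, 2, 6, 12, 18 and 24 h, 1, 2, 2, 4, 3 and 4 of the 4 were, and Ccnd2 at 0 h was the only call in the other direction. Of the 4 inhibitors, 1, 3, 4, 3, 3 and 3 were called higher at these times. Of the 2 pocket proteins, 0, 0, 2, 1, 2 and 2 were called higher. The share of all genes called lower also grew, over 3.72%, 9.88%, 19.2%, 22.8%, 29.2% and 31.9%. That called higher grew over 4.61%, 9.18%, 18.1%, 23%, 29% and 31%. The order in which members came to be called at every later time was Cdkn1b from 0 h, Ccnd2, Cdk6 and Cdkn2c from 2 h, Cdkn2d and Rb1 from 6 h, Ccnd3 from 12 h, Rbl2 from 18 h, and Cdk4 and Cdkn1a at 24 h only. The 0 h call of Cdkn1b precedes induction and was lost in 3 of 9 alternative settings. By limma, the change from 0 h to 2 h was not called for Cdkn1b (0.29, adjusted p = 0.762) or Cdkn2c (0.20, 0.793). Without replicate 2, or in a fit of the 2 h libraries alone, 0 of the 2 h calls stood, so the early part of this order is not settled. The groups did not overlap for 6, 8, 7, 8, 8 and 10 members at the 6 times, beside 32.7%, 27.9%, 41%, 51%, 64.5% and 71% of all genes.

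Because the lines already differed at 0 h, the change of the difference from 0 h was tested as well. It was called for 4 members at 2 h, 8 at 6 h and 7 at each of 12, 18 and 24 h, beside 3.1%, 15.9%, 29.7%, 43% and 48.4% of all genes. The 4 members at 2 h were Ccnd2 (-1.36), Cdk6 (-1.02), Ccnd3 (0.58) and Cdkn1a (0.93), and leaving out any 1 replicate left 0 or 1 of these calls. At 2 h the calls over all genes went from 396 to 54, 55 and 469 without replicates 1, 2 and 3. Without replicate 2, 3 members were called at 6 h and 4 at 12 h. Over all genes that fit took the calls from 2024 to 584 at 6 h and from 3795 to 1548 at 12 h. With the batch block Cdkn1a (0.52, adjusted p = 0.112 without it and 0.0157 with it) and Cdkn2c (0.51, 0.0656 and 0.023) were called at 12 h as well, making 9. Over all genes the block took the 12 h calls from 3795 to 4334. At 24 h the change was -3.95 for Ccnd2, -1.51 for Cdk6, -0.53 for Cdk4, 2.48 for Cdkn1b, 1.61 for Cdkn2c, 1.24 for Rb1 and 0.44 for Cdkn2d. For Ccnd3 (-0.14, adjusted p = 0.464), Cdkn1a (-0.22, adjusted p = 0.492) and Rbl2 (0.33, adjusted p = 0.177) it was not called, so that their 24 h differences, though called, were not shown to exceed those present before induction. In the contrasts chosen after the values were seen, 6 members changed from 6 to 24 h, beside 40.4% of all genes, and 6 from 12 to 24 h, beside 27.2%. With the batch block Rb1 (0.37, adjusted p = 0.0768 without it and 0.0352 with it) was called from 6 to 24 h as well. Without replicate 1 or without replicate 2, 2 members were called from 12 to 24 h, beside 1754 and 1355 of all genes instead of 3468. The limma moderated F test over the 5 changes called 9 of 10 members, beside 59.8% of all genes.

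Between neighbouring times, the difference moved for 5 members from 2 to 6 h (Ccnd2, Cdk6, Cdkn2c, Cdkn2d and Rb1, beside 5.96% of all genes), for 1 from 6 to 12 h (Cdk4, beside 16%), for 3 from 12 to 18 h (Ccnd2, Cdkn1b and Cdkn2c, beside 11.7%) and for 0 from 18 to 24 h (beside 2.63%). From 18 to 24 h 1 member, Ccnd3 (-0.36), had an unadjusted p under 0.05 in limma. With the culture batch as a block, 4 members moved from 6 to 12 h instead of 1, the 3 added being Ccnd2 (-0.62, adjusted p = 0.0399), Cdkn1a (-0.64, 0.00793) and Cdkn2c (-0.49, 0.046), and Cdkn1b (0.83, 0.0184) was added from 2 to 6 h. Over all genes the block took the calls from 2043 to 2707 from 6 to 12 h and from 761 to 1351 from 2 to 6 h. Without replicate 1 or without replicate 2, 0 members were called from 2 to 6 h, and no more than 1 from 12 to 18 h without any 1 replicate. The calls over all genes from 2 to 6 h were then 41 and 43. From 12 to 18 h they were 285, 143 and 1275 without replicates 1, 2 and 3, instead of 1497.

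Within each line alone, Ikaros cells differed from their own 0 h in 4 members at 2 h, 7 at 6, 12 and 18 h and 8 at 24 h (19.2%, 32.8%, 46.1%, 54.6% and 60.6% of all genes), Ccnd3 and Rbl2 being the members not called at 24 h. With the batch block Cdkn1a (0.35, adjusted p = 0.0246) was called in Ikaros cells at 12 h as well. Control cells, which received the same drug, differed from their own 0 h in 0 members at 2, 12 and 24 h, in Cdkn1b and Cdkn2c at 6 h and in Cdkn1b at 18 h (0.047%, 0.0549%, 0.47%, 5.1% and 0.478% of all genes at 2, 12, 24, 6 and 18 h). In limma, 1, 2 and 2 members of control cells had an unadjusted p under 0.05 at 2, 12 and 24 h. With the batch block Cdkn2c was called in them at 24 h (-0.61 beside -0.58 without the block, adjusted p = 0.0327). The batch block gives batches 1 and 4 the same effect at 0 h and later, which is assumed, since the 0 h cells were obtained separately. Leaving out any 1 replicate, 0 or 1 member was called in control cells at 6 h and at 18 h. Over all genes, the control calls without replicates 1, 2 and 3 were 0, 0 and 115 at 6 h, instead of 651. At 18 h they were 2, 0 and 10, instead of 61. These comparisons share the 0 h libraries with those above. Because the 0 h cells were obtained separately, change over time and a difference between collections cannot be told apart in these comparisons.

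**Figure D3:**
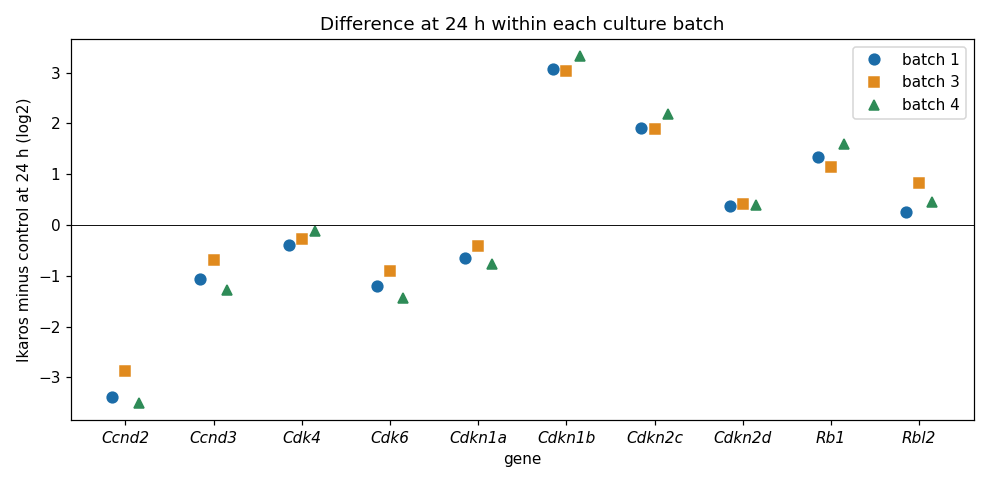
Difference between the Ikaros and the control library of the same culture batch at 24 h (log2, vertical axis) for each of the 10 genes; blue circles are batch 1, orange squares batch 3 and green triangles batch 4. For every gene the 3 batches lie on the same side of 0, as they must where the groups do not overlap.

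Within culture batches the 24 h differences kept their sign in 3 of 3 batches for all 10 members. Groups that do not overlap must keep their sign in every batch, so this adds nothing to their lack of overlap. At 24 h the groups did not overlap for 71% of all genes. For Ccnd2 the batch differences were -3.37, -2.88 and -3.49 in batches 1, 3 and 4, and for Cdkn1b 3.07, 3.03 and 3.32. For the members with the smallest differences they were -0.39, -0.27 and -0.13 for Cdk4, 0.37, 0.42 and 0.40 for Cdkn2d and 0.25, 0.83 and 0.45 for Rbl2. The batch values of Rbl2 spread most for their size.

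Other genes of the G1/S pathway were followed in 4 lists. Of all genes, 31.9% were called lower and 31% higher at 24 h. Of 16 further genes of the G1/S machinery in the table, 9 were lower in Ikaros cells at 24 h, 2 were higher and 5 were not called, with a median log2 difference of -0.43 beside -0.01 over all genes. The largest were Ccnd1 (cyclin D1, -4.13), Ccne2 (-1.78) and Ccne1 (-1.73), the last 2 being the E-type cyclins that follow cyclin D. Ccnd1 ended at a low reading of 6.68 in Ikaros cells, beside library medians of 11.70 to 11.73. The list mixes roles: the inhibitor Cdkn2a was called higher (0.76), while the inhibitor Cdkn2b and the pocket protein Rbl1 were not called. Of 16 partners of the pocket proteins, 8 were lower, 4 higher and 4 not called (median -0.37), led by Mybl2 (B-Myb, -1.91), E2f8 (a repressive E2F, -1.07) and Tfdp1 (the dimerization partner of E2F factors, -0.93). Of 28 S phase genes, 26 were lower, 0 higher and 2 not called at 24 h (median -0.86), with Tyms (thymidylate synthase, -2.97), Cdc6 (origin licensing, -1.66) and Tk1 (thymidine kinase, -1.64) furthest down.

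At 2 h 1 of the 28 S phase genes was lower, at 6 h 5 were lower and 4 higher, at 12 h 7 and 2, and at 18 h 15 and 2. Of all genes, 9.88%, 19.2%, 22.8% and 29.2% were lower at 2, 6, 12 and 18 h, and 9.18%, 18.1%, 23% and 29% higher. The 6 h counts of the S phase genes lay near these shares. Of 18 p53 target genes in the table, which were followed because of Cdkn1a, 9 were higher, 6 lower and 3 not called at 24 h (median 0.26). The 3 largest, Trp53inp1 (5.63), Btg2 (3.52) and Fas (2.86), were higher at 24 h, when Cdkn1a was lower, while the 6 lower genes went the way of Cdkn1a. Btg2 and Fas read low in control cells at 24 h (5.58 and 5.83), so the size of their differences is uncertain. At 2 h, when Cdkn1a was higher, 0 of the 18 were higher and 4 lower, with a median of 0.16. At 6 h, when Cdkn1a stood furthest above control cells, 4 were higher and 3 lower (median 0.26), near the shares of all genes.

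**Figure D4:**
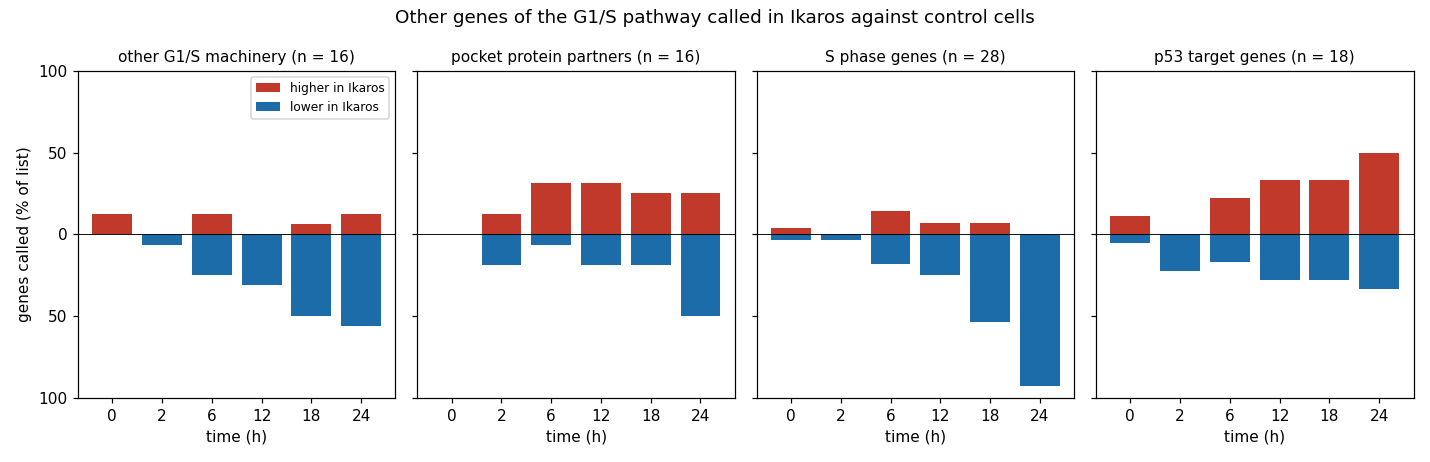
Percent of each list called higher (red, upwards) or lower (blue, downwards) in Ikaros than in control cells against time in h; the number of genes in the table is given above each panel. The S phase genes go from 1 of 28 lower at 2 h to 26 of 28 at 24 h. Of all genes, 9.88% were lower at 2 h and 31.9% at 24 h.

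Over the 12 group means, the genes whose pattern was most like that of Cdkn1b among 9510 genes were Khnyn (Pearson r = 0.991), Cnot6l (0.991) and Arl6ip1 (0.990), and most like that of Ccnd2 were Mapk14 (0.992), Ptgs1 (0.991) and Ccdc137 (0.989). Among the members themselves, Ccnd2 went with Cdk6 (r = 0.931) and against Rb1 (-0.941), and Cdkn1b went with Cdkn2c (0.954) and Rb1 (0.946), while Cdkn1a had no r beyond 0.519 in size with any other member. The highest r was that of Cdkn2c with Rbl2 (0.958), although the moderated F test of Rbl2 was not called. These values describe 12 means that share the time course and the normalization.

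The members lie on GRCm38 as follows in the GENCODE annotation. Ccnd2 (chr6:127125162-127152193) and Cdkn1b (chr6:134920401-134925513) are on the same chromosome, as are Ccnd3 (chr17:47505051-47599691) and Cdkn1a (chr17:29090976-29100727). Cdk4 is at chr10:127063534-127067920, Cdk6 at chr5:3341485-3531008, Cdkn2c at chr4:109660876-109667189, Cdkn2d at chr9:21288410-21291407, Rb1 at chr14:73183673-73325822 and Rbl2 at chr8:91070057-91123844. The values are per gene, not per transcript. Of the 10 members, 7 overlap another annotated gene, and in 4 of them it is a protein-coding gene on the opposite strand: Bysl in Ccnd3, Tspan31 in Cdk4, Rcbtb2 and Lpar6 in Rb1, and Aktip in Rbl2. The strand setting of the counting is not given in the sources used here, so whether reads of these partners were counted with the members cannot be told. Ccnd3 also has an annotated pseudogene, Ccnd3-ps, and its values are uncertain where reads were shared with it.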

How the data were processed

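Strand-specific mRNA libraries (36, 3 per group) were trimmed by the authors, mapped to mm10 with TopHat2 (unique best hits) and assigned to genes with HTSeq. They then removed effects of gene length and GC content with cqn and of library preparation with non-parametric ComBat. The deposited values are log2-scale expression, with the lowest value set to 1. The log base is not written in the table and was taken as that of cqn. Read counts were not used here, so depth and counting error are unknown. Library medians were 11.70 to 11.73, and libraries of a group correlated at 0.962 to 0.992.

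All 12762 genes were fitted with limma 3.58.1 (R 4.3.3), with 12 group means and all 36 libraries, and p values were adjusted by Benjamini and Hochberg over all genes within each comparison and called under 0.05 (two-sided). On simulated data for the 24 h comparison, with 12762 genes of which 200 were changed by 1.5 log2 units, 172 were recovered and 9 unchanged genes were called. The simulated noise was normal and independent between libraries, without batch or ComBat effects. These rates therefore need not hold for the real libraries, where far more genes were called. Because ComBat was applied before deposition, standard errors may be too small. The labels give the culture batch of each library (1, 2 and 4 at 0 h, and 1, 3 and 4 later), which pairs the lines: deviations of paired libraries correlated at -0.06 to 0.51, with a median of 0.13, and 12 of 18 pairs were above 0.1. The fit with batch as a block was an alternative, beside a filter at the 25th percentile, quantile normalization, a trended robust variance, a fit of only the groups compared and leaving out each replicate.

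The members, gene lists and markers were chosen with earlier results of these data known. Genes named were the 10 members, the 3 called genes with the largest 24 h difference of each list, the 3 genes most correlated with the members that rose and fell most, and Ikzf1. The pre-B markers, Lyz2, Itgam, Cdkn2a, Cdkn2b and Rbl1 were named, and the changes from 6 and 12 h to 24 h tested, after their values were seen. In the lists, Cdkn1c, E2f6, Pmaip1, Phlda3, Plk2, Eda2r and Perp had no row. Of the 12762 identifiers, 98.7% matched GENCODE M21 on GRCm38. Promoters came from RefSeq on GRCm38.p6.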

Additional observations from a re-analysis of the deposited data

Results flagged for a closer look

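The following results were singled out because Ikaros minus control changed between times by a limma test of the change itself. From 0 to 24 h it changed by -3.95 for Ccnd2, -0.53 for Cdk4, -1.51 for Cdk6, 2.48 for Cdkn1b, 1.61 for Cdkn2c, 0.44 for Cdkn2d and 1.24 for Rb1 (log2). From 6 to 24 h, a contrast chosen after the values were seen, it changed by -1.34 for Ccnd2, -0.89 for Ccnd3, -0.39 for Cdk4, -1.38 for Cdkn1a, 1.36 for Cdkn1b and 0.61 for Cdkn2c, and 40.4% of all genes were called. From 12 to 24 h, also chosen after the values were seen, it changed by -0.71 for Ccnd2, -0.64 for Ccnd3, 0.82 for Cdk6, -0.74 for Cdkn1a, 0.76 for Cdkn1b and 1.09 for Cdkn2c, and 27.2% of all genes were called. Among these, Ccnd3 and Cdkn1a changed from 6 to 24 h while their change from 0 to 24 h was not called, and the change of Cdk6 from 12 to 24 h ran against its earlier fall.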

How the results depend on the processing

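The 60 differences of the members and the 90 changes, steps and within-line results that were called were followed through 1314 alternative runs. In 1166 of them the direction and the call stood, in 139 the call was lost, in 8 a call was gained, and in 1 the direction turned: the uncalled 2 h difference of Rb1 ranged from -0.0437 (without replicate 1) to 0.1504 when a replicate was left out. Of the 139 lost calls, 110 came from leaving out a replicate and 28 from fitting only the groups compared, both of which use fewer libraries. Among these results, the filter and the trended robust variance changed no call. Calls gained by results that were not called at first were followed outside the differences only under the 2 forms of the replicate block, which added 17 such calls and lost 0.

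The count of members called moved by over 1.5 times as follows. With either form of the replicate block, members called at 0 h went from 3 to 5, and members called for the step from 6 to 12 h went from 1 to 4 with the batch number and to 5 with separate blocks for the 0 h cultures; members called in control cells at 24 h went from 0 to 1 with the batch number. The replicate block moved no other count of members called that far. Over all genes, calls at 0 h went from 1063 to 1361 with the batch number and 1497 with separate blocks. Those for the step from 6 to 12 h went from 2043 to 2707 and 2966. In control cells at 24 h they went from 60 to 61 with the batch number. With only the groups compared, members called went from 5 to 0 at 2 h, from 4 to 2 for the change from 0 to 2 h, from 5 to 0 for the step to 6 h, from 1 to 0 for the step to 12 h, from 2 to 0 in control cells at 6 h and from 1 to 0 in control cells at 18 h. Over all genes, the calls in these 6 comparisons fell as well. In the same order they went from 2432 to 860, 396 to 257 and 761 to 47, then from 2043 to 509, 651 to 12 and 61 to 0.

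Leaving out each replicate in turn, members called ranged from 1 to 3 at 0 h, 0 to 4 at 2 h, 6 to 8 at 6 h, 6 to 8 at 12 h, 7 to 8 at 18 h and 7 to 10 at 24 h. Over all genes, calls ranged from 318 to 1204 at 0 h, 804 to 2719 at 2 h and 2640 to 4971 at 6 h. At 12, 18 and 24 h they ranged from 3769 to 5921, 5432 to 7482 and 6248 to 8054. With all libraries they were 1063, 2432, 4759, 5850, 7423 and 8024. For the change from 0 h, members called ranged from 0 to 1 at 2 h, 3 to 8 at 6 h, 4 to 6 at 12 h, 5 to 6 at 18 h and 6 to 7 at 24 h. The calls over all genes ranged from 54 to 469 at 2 h, 584 to 1954 at 6 h and 1548 to 3924 at 12 h. At 18 and 24 h they ranged from 3077 to 5809 and 4056 to 6404. With all libraries they were 396, 2024, 3795, 5492 and 6180. For the steps, members called ranged from 0 to 4 at 6 h, 0 to 0 at 12 h, 0 to 1 at 18 h and 0 to 0 at 24 h, and in control cells from 0 to 1 at 6 h and 0 to 1 at 18 h. The step calls over all genes ranged from 41 to 685, 388 to 2056, 143 to 1275 and 0 to 120. With all libraries they were 761, 2043, 1497 and 336. In control cells calls over all genes ranged from 0 to 115 at 6 h (651 with all libraries) and 0 to 10 at 18 h (61). For the changes chosen after the values were seen, members called ranged from 4 to 5 from 6 h and from 2 to 4 from 12 h. Calls over all genes ranged from 2904 to 5420 and from 1355 to 3523, beside 5161 and 3468 with all libraries. The lowest 24 h count of members, 7, was without replicate 2. The cause of these moves beyond the smaller number of libraries was not tested. Without read counts the depth behind the values is unknown.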
